A study of Mus musculus with 12 samples.

Results

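The right ventricle of mice 1 week after the pulmonary artery was narrowed with a clip (pulmonary artery clipping, PAC) was compared with the right ventricle of sham-operated mice. Every array titled as clipped right ventricle at 1 week and every array titled as sham right ventricle was taken, which gave 2 arrays against 2, or 4 of the 12 arrays of the series. The comparison covered 19938 genes, each read by 1 probe set that names no other gene, out of 35556 probe sets on the array. The series followed pressure overload of either ventricle in male C57BL/6 mice, with clipping of the pulmonary artery for 1, 3 or 6 weeks, constriction of the aorta (TAC) for 3 weeks, and sham right and left ventricles at 3 weeks. Mice clipped for 1 week were 13 weeks old, sham right ventricles came from mice 15 weeks old and 3 weeks after the operation, and mice clipped for 6 weeks were 18 weeks old. No sham right ventricle was taken at 1 week, so clipping, age and time since the operation cannot be told apart in this comparison. The labels describe Weck haemoclips closed on the vessel, hearts flushed with buffer and cut into left ventricle, septum and right ventricle, and total RNA labelled with biotin. They do not say whether the arrays of a group came from separate mice, so each p-value rests on a spread between arrays that may be technical.

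The right ventricle pumps against the low pressure of the lung circulation, and a narrowed pulmonary artery forces its thin wall to work against a high one. Heart muscle under such a load re-expresses fetal genes and enlarges its cells, while fibroblasts, endothelial cells and macrophages multiply and lay down matrix.

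Expression is given as log2 values, on which a difference of 1 is a 2-fold change, and each ± is the standard error of the fit. Heart muscle markers stood near the top of the range of 1.71 to 14.78 on all 4 arrays, among them Myh6 at 13.69 to 13.80, Actc1 at 14.16 to 14.23 and Pln at 13.83 to 13.94, chosen as a check of the tissue. Probe sets with no gene listed had medians of 5.65 to 5.79 by array, and values below that mark are read here as low signal. Mates of a group correlated at 0.9917 for the clipped pair, the lowest of the 6 groups, and at up to 0.9971 elsewhere. The second clipped array lay farther from the sham arrays than the first, with a median increase of 0.60 against 0.41 over the genes called higher.

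At 1 week 3675 of 19938 genes (18.4%) differed from sham in limma's moderated test at an adjusted p under 0.05, 1909 of them higher (9.57% of all genes) and 1766 lower (8.86%). The increases were the larger changes, since 198 of the 210 genes that differed at least 2-fold were higher. Of the genes called higher, 864 came from the top 4985 genes by level and 57 from the bottom 4985, while the genes called lower numbered 172 and 463 there. The median difference also moved with level, at -0.15 and -0.20 in the lowest and second quartile and 0.06 and 0.09 in the third and highest. The arrays of both groups did not overlap for 12580 genes (63.1%), and an exact permutation test of 2 arrays against 2 cannot give a p below 0.33. The calls rest on a spread pooled over all 12 arrays, and 144 genes, 106 higher and 38 lower, were called with all arrays and again without each of the 4 arrays in turn. Over all genes the number of calls was 4557 without the first clipped array, 317 without the second, 1090 without the first sham array and 227 without the second. The counts of a gene group with 1 array left out are given below in this order.

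**Figure D1:**
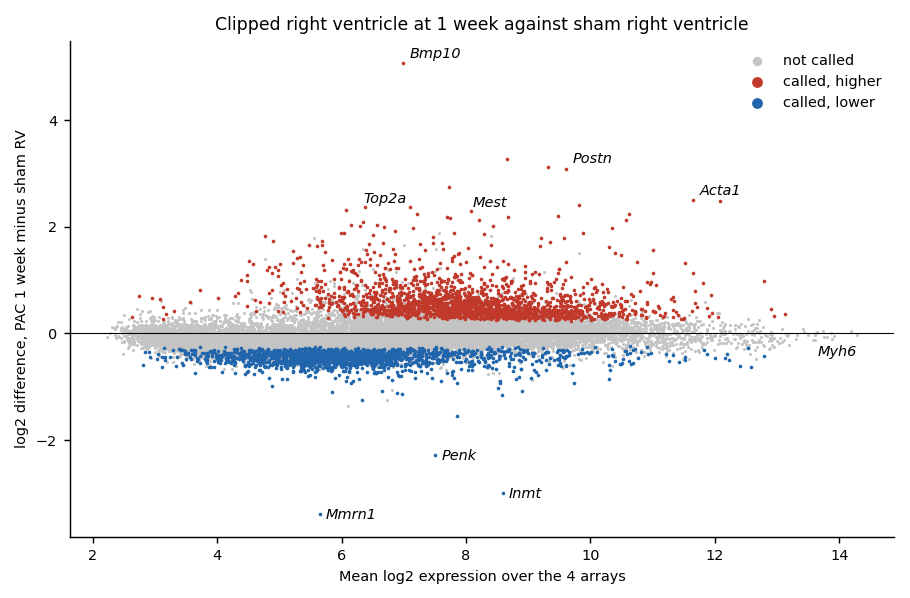
Each point is 1 of 19938 genes, with the mean log2 expression over the 4 arrays on the x axis and the log2 difference of clipped right ventricle at 1 week minus sham right ventricle on the y axis; red and blue mark the 1909 genes called higher and the 1766 called lower. Increases reach 5.06 for Bmp10 and decreases -3.39 for Mmrn1, and the decreases lie more often at low levels.

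The sham right ventricle stood apart from the rest of the series, which bears on every count against it. Of the 1909 genes called higher, 1370 (71.8%) had both sham arrays below all the other 10 arrays, and for 343 (18.0%) both clipped arrays at 1 week lay above all the other 10. Of the 1766 genes called lower, the sham arrays lay above all others for 1265 (71.6%) and the clipped arrays at 1 week below all others for 329 (18.6%). The sham right ventricle was also the only unclipped right ventricular group, so a trait of its 2 arrays and an effect that clipping has at every week cannot be told apart here. For several gene groups below, the number of calls in which the clipped arrays at 1 week were themselves the extreme of the series is therefore given. For others the comparison with the clipped right ventricle at 3 and 6 weeks is given. No sham array enters the difference in that comparison, but the sham arrays enter the pooled spread behind its p-values. In the lists of sarcomere proteins, calcium cycling, potassium channels, connexins, matricellular proteins, proteoglycans, matrix proteases, fibroblast markers, endothelial markers and integrins, the clipped arrays at 1 week were the highest of the series for none of the called increases.

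Genes of mitosis had the highest median of the 56 gene lists examined, over both clipped arrays together; on the second array alone the fibrillar collagens were higher, at 1.65. Of 53 measured genes of the mitotic spindle, kinetochore and cytokinesis, 38 rose (71.7%) and none fell, against 9.57% and 8.86% of all genes, and 32 of them rose at least 2-fold. The median difference of the list was 1.18, with 0.76 on the first clipped array and 1.52 on the second, against -0.05 over all genes. For 30 of the 38 both clipped arrays at 1 week lay above every other array of the series, and for 15 the sham arrays lay below every other array. In bulk tissue more cells of a type and more RNA per cell cannot be told apart, here and for every group below. With 1 array left out the test called 45, 24, 24 and 15 of these genes.

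Top2a, the topoisomerase that untangles replicated DNA, read 7.85 and 8.81 on the clipped arrays and 6.02 and 6.15 on the sham arrays. Its increase was 2.25 ± 0.24, or 4.74-fold (limma, adjusted p = 0.0029). Both clipped arrays lay well above both sham arrays, and the second was the higher of the pair. Mki67, which codes for the Ki-67 antigen of dividing cells and is on none of the lists, read 7.76 and 8.44 against 6.28 and 6.56, an increase of 1.68 ± 0.23 (adjusted p = 0.0049). Knl1, a scaffold of the kinetochore, read 6.15 and 6.96 against 4.65 and 4.98, and Ncapg, a subunit of condensin, read 6.11 and 6.93 against 4.94 and 4.77. In sham tissue both were below the mark for low signal, and on the clipped arrays both were above it. Their increases were 1.74 ± 0.21 (adjusted p = 0.0031) and 1.66 ± 0.21 (adjusted p = 0.0035).

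Genes for several steps of mitosis were among those that rose. Smc4, a condensin subunit, rose by 1.34 ± 0.16, and Tpx2, a factor that seeds spindle microtubules, rose by 1.84 ± 0.24. Kif11, the motor that pushes spindle poles apart, rose by 2.02 ± 0.25, and Prc1, which bundles microtubules of the spindle midzone, rose by 2.31 ± 0.26. Ect2, which starts the contraction of the cleavage furrow, rose by 2.08 ± 0.23, and Anln, a scaffold of that furrow, by 1.88 ± 0.29. These 6 genes, with Top2a, Knl1, Ncapg, Ckap2, Ckap2l, Cenpe, Kif18a, Racgap1 and Smc2, kept the call without each of the 4 arrays. Aurka (0.51 ± 0.16, adjusted p = 0.054) and Birc5 (0.33 ± 0.11, adjusted p = 0.059) did not pass the test.

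Cyclins and replication genes moved less. Of 32 cyclins, kinases and cell cycle regulators 11 rose and none fell, with a median of 0.34, and for 9 of the 11 the clipped arrays at 1 week were the highest of the series. Ccnb2, a mitotic cyclin, read 6.78 and 7.32 against 5.58 and 5.83, an increase of 1.34 ± 0.16, and Ccna2, the cyclin of S phase and G2, rose by 1.99 ± 0.27. Ccnd1, the cyclin that drives entry into the cycle, read 9.78 and 9.94 against 9.13 and 9.16, but its arrays in the later clipped and left ventricular groups ranged from 9.50 to 9.90. Of 39 genes of DNA replication and nucleotide supply 19 rose and none fell, with a median of 0.43. Mcm3 and Mcm6, subunits of the replicative helicase, rose by 1.22 ± 0.23 and 1.12 ± 0.20, Pola1, the catalytic subunit of DNA polymerase alpha, by 0.68 ± 0.10, and Dbf4, the activator of the kinase that fires origins, by 1.15 ± 0.16. With 1 array left out the replication count was 22, 3, 5 and 2, with Dbf4 and Pola1 called each time, and the cyclin count was 17, 5, 8 and 3.

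The promoters of the mitotic list were read for the motifs known from genes of late cell cycle. The windows are the 250 bases before each gene's start in the RefSeq table for GRCm38.p6, printed in the direction of transcription, with capitals for CCAAT and TTTGAA on either strand (ATTGG and TTCAAA are the reverse strand of each). TTTGAA is the core of the cell cycle genes homology region, and CCAAT is the site of the factor NF-Y. The 4 genes shown were also higher at 1 week than at the later weeks of clipping, as given below, and 1 of them holds neither motif.
Top2a, chr11:99024190-99024439, minus strand: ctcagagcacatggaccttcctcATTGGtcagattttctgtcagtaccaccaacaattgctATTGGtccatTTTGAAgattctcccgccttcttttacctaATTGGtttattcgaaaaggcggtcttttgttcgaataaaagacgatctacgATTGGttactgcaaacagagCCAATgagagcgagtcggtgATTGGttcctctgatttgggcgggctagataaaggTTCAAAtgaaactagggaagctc
Mki67, chr7:135716380-135716629, minus strand: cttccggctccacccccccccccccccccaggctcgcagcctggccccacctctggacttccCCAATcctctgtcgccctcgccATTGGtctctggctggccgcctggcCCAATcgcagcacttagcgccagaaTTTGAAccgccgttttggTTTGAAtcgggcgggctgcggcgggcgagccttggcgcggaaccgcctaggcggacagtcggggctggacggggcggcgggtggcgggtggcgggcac
Ncapg, chr5:45669675-45669924, plus strand: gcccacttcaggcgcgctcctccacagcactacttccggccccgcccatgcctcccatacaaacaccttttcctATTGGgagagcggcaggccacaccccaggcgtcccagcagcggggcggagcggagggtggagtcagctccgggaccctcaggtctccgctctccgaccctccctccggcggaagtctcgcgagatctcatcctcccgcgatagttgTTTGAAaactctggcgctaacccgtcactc
Knl1, chr2:119046869-119047118, plus strand: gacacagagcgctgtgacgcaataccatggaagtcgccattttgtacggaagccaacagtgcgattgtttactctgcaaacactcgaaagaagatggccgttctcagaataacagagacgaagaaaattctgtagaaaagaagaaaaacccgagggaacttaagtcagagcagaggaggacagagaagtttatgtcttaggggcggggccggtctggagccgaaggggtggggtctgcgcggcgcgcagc
The Top2a window holds 6 matches to CCAAT and 2 to TTTGAA, that of Mki67 3 and 2, that of Ncapg 1 and 1, and that of Knl1 0 of either. Over the 45 mitotic genes with a window, 64.4% held CCAAT and 28.9% held TTTGAA, and over all 15563 promoters the shares were 35.5% and 13.7%. The mitotic list, like the replication list, was chosen as cell cycle genes and includes members not called. Its shares thus describe the choice of genes and not the calls. Of the genes called higher that have a window, 39.1% held CCAAT and 12.5% TTTGAA, and of those called lower 34.2% and 12.6%. Both motifs stood in the same window in 22.2% of the mitotic genes and 5.0% of all promoters. The E2F motif, searched as TTTCCCGC, TTTCGCGC, TTTGCCGC or TTTGGCGC on both strands, was in 24.2% of the 33 replication genes with a window, 4.4% of the mitotic genes and 2.5% of all promoters. A match says that these letters are in the window and nothing about a factor bound there.

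The clipped right ventricle at 1 week was then compared with the mean of the clipped right ventricles at 3 and 6 weeks, a comparison of clipped tissue with clipped tissue in which no sham array enters the difference. It called 45 genes (0.226%), 35 higher at 1 week (0.176%) and 10 lower (0.0502%), and week after clipping and age (13 weeks against 15 and 18) cannot be told apart in it. Without 1 array at a time it called 3 to 560 genes, the 560 without the first clipped array at 1 week and 3 without the first array at 3 weeks or the second at 6 weeks. Of the mitotic list 9 genes were higher at 1 week, and the median of the list was 0.81 above the later weeks, against -0.01 over all genes. Each week's own median over the shared sham arrays was 1.18 at 1 week, 0.41 at 3 weeks and 0.18 at 6 weeks. Top2a was 1.50 higher than at the later weeks, Knl1 1.31, Tpx2 1.28, Ncapg 1.26, Mki67 and Ect2 1.25, Ccna2 1.41 and Ccnb2 1.00.

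Genes outside the cell cycle were also higher at 1 week than later. Mest, an imprinted gene active in fetal tissues, read 8.88 and 9.66 at 1 week, 8.33 and 8.30 at 3 weeks, 7.89 and 7.78 at 6 weeks, and 7.08 and 7.21 in sham. The 1-week arrays were the highest of the series, and the increase over sham was 2.12 ± 0.19, or 4.35-fold (adjusted p = 0.0019). Slc38a1, a transporter of glutamine and other neutral amino acids, read 8.14 and 8.50 at 1 week, 7.08 and 7.35 at 3 weeks, 7.81 and 7.99 at 6 weeks, and 6.64 and 6.62 in sham. Its increase over sham was 1.69 ± 0.14, or 3.24-fold (adjusted p = 0.0011), and the clipped arrays at 1 week again exceeded all others. Casq1, the calsequestrin of fast skeletal muscle, read 8.21 and 8.72 against 6.60 and 6.95, with an increase of 1.69 ± 0.22 over sham and of 1.42 over the later weeks. Unlike those of Mest and Slc38a1, its clipped arrays at 1 week did not both lie above all other arrays. Epn3, an endocytic adaptor, read 8.59 and 8.68 against 7.83 and 7.87, and was 0.98 ± 0.08 higher than at the later weeks (adjusted p = 0.0015). Ddc, the decarboxylase that makes dopamine and serotonin, read 7.33 and 7.28 against 6.25 and 5.92 in sham and was 1.11 higher than at the later weeks. Hmgb2, a chromatin protein abundant in dividing cells, read 8.35 and 8.76 against 7.10 and 7.39, and its clipped arrays at 1 week were the highest of the series.

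**Figure D2:**
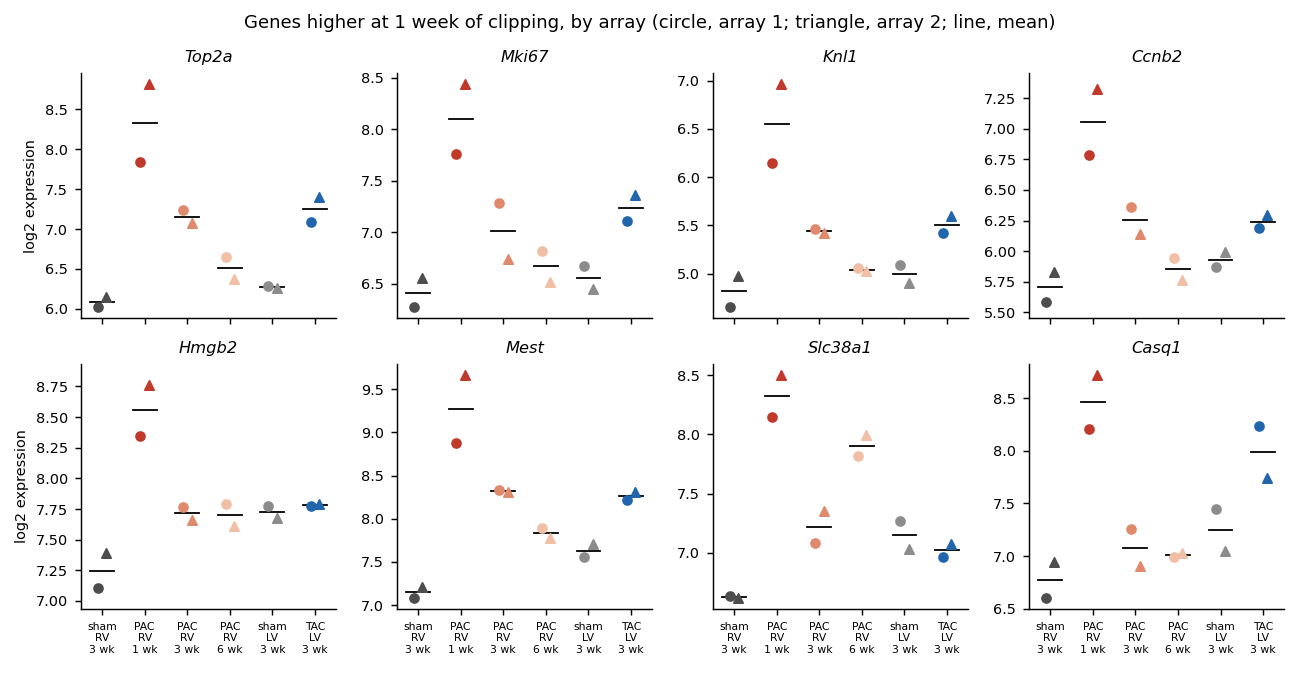
Log2 expression of 8 genes on all 12 arrays, with a circle for the first array of a group, a triangle for the second and a line for their mean, from sham right ventricle at the left to the aortic constriction group at the right. For Top2a the clipped arrays at 1 week read 7.85 and 8.81 and the sham right ventricles 6.02 and 6.15, and Slc38a1 read 8.14 and 8.50 against 6.64 and 6.62.

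Muscle genes known to answer load rose without standing above the later weeks. Of 23 such genes 10 rose and none fell, with a median of 0.51, which was 0.23 on the first clipped array and 0.90 on the second. For all 10 the sham arrays lay below every other array, and for none were the clipped arrays at 1 week the highest. The list's median against the later weeks was -0.06, and each week's own median over the shared sham arrays was 0.51, 0.44 and 0.82 at 1, 3 and 6 weeks. The count was 18, 2, 2 and 2 with 1 array left out, and 6 with cyclic loess scaling.

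Acta1, the skeletal actin of the fetal heart, read 12.59 and 13.20 on the clipped arrays and 9.91 and 10.90 on the sham arrays, and was the member that kept the call without each array. Both clipped values lay above both sham values, though the sham arrays themselves were 0.99 apart. Its increase was 2.49 ± 0.31 (adjusted p = 0.0034). Its promoter is shown because a CArG box, the site of serum response factor, is known in genes of this group; the box is in capitals.
Acta1, chr8:123894776-123895025, minus strand: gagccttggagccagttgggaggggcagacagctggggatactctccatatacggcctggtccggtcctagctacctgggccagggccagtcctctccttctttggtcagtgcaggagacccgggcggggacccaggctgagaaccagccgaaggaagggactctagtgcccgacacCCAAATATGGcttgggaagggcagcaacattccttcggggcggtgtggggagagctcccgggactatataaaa
Only the strict form CCWWWWWWGG, with W for A or T, was searched, so a window without it may still hold a variant. In that form the window of Acta1 holds 1 CArG box and those of Nppa and Ankrd1 hold 0. The box was in 15.0% of the 20 load genes with a window, which is 3 genes, in 19.0% of the 21 sarcomere genes with a window, which is 4 genes, and in 1.3% of all promoters. Xirp2 and Nrap, proteins of the myofibril's attachment sites, rose by 1.14 ± 0.26 and 0.50 ± 0.11, and Ankrd1 and Ankrd23, stretch-responsive repeat proteins of the sarcomere, by 0.99 ± 0.22 and 0.90 ± 0.19. Ccn2, a matrix-associated growth regulator, read 9.70 and 11.44 against 8.92 and 9.19, and its difference of 1.51 ± 0.49 did not pass the test (adjusted p = 0.055). Flnc and Hspb1, which protect the sarcomere under strain, differed by 0.70 ± 0.24 and 0.49 ± 0.19 with adjusted p of 0.061 and 0.094.

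Most sarcomere proteins, like most genes, were not called. Of 25 measured genes 3 rose, a share near the 9.57% of all genes called higher. None fell, against 8.86% of all genes, and the median was 0.06. The count was 3, 1, 1 and 1 with 1 array left out. Mybpc2, the myosin-binding protein C of fast skeletal muscle, read 8.38 and 9.12 against 6.77 and 6.97, the 1 member that kept the call without each array, with an increase of 1.88 ± 0.20 (adjusted p = 0.0029). Mybpc3, its cardiac relative, rose by 0.32 ± 0.08, and Tcap, the cap of titin, by 0.47 ± 0.10. Tnni3, the cardiac troponin I, differed by -0.27 ± 0.09 (adjusted p = 0.059). Genes of fast skeletal muscle did not move together with Mybpc2 and Casq1, since Myh4 and Tnni2 fell by 0.43 ± 0.08 and 0.59 ± 0.11 and Myh4 was below the mark for low signal on all 4 arrays.

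Calcium and channel genes moved in both directions, at shares not far from those of all genes. In the highest quartile of level, where the mean level of the calcium list lay, 17.3% of genes were called higher and 3.5% lower. Of 26 calcium genes 4 rose and 4 fell (15.4% each, against 9.57% and 8.86% of all genes), with a median of 0.02, and with 1 array left out 3, 1, 1 and 1 rose and 7, 0, 0 and 0 fell. Sln, the sarcolipin that inhibits the calcium pump in atrial muscle, rose by 1.70 ± 0.38. Cacna1c, the pore of the L-type calcium channel, fell by 0.34 ± 0.10, and Camk2a, a subunit of the calcium-dependent kinase, fell by 0.46 ± 0.11. Ryr2, the release channel, differed by -0.27 ± 0.09 and did not pass (adjusted p = 0.061). Among 27 potassium channel genes 1 rose (3.7%) and 3 fell (11.1%), with a median of -0.17. Kcna4, a subunit of the transient outward current, read 6.58 and 6.31 against 5.84 and 5.39 and rose by 0.83 ± 0.16. Kcnk1, a leak channel, read 5.84 and 5.68 against 6.34 and 6.64 and fell by 0.73 ± 0.14. Of 21 genes of connexins, sodium and pacemaker channels 2 rose (9.5%) and 1 fell (4.8%), the latter Scn4b, a sodium channel subunit, at 6.91 and 6.13 against 7.25 and 7.40. With 1 array left out 1, 1, 1 and 0 potassium channel genes rose and 7, 0, 2 and 0 fell, and the connexin list had no call without the second clipped or either sham array.

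Markers of atrial muscle were higher on the clipped arrays than in the sham right ventricle, and their part in the results for muscle genes was not tested. Of 14 markers 7 rose and none fell, with a median of 0.94, and their mean level was 8.84 and 9.66 on the clipped arrays against 7.91 and 7.59 on the sham arrays. In the left ventricle the mean level was 8.14 and 8.82 on the sham arrays and 8.33 and 8.18 after aortic constriction. The second sham left ventricle thus stood near the first clipped array. For none of the 7 were the clipped arrays at 1 week the highest of the series. Bmp10, a ligand of the BMP family made by the atria, read 8.55 and 10.50 at 1 week and 4.28 and 4.64 in sham. At 3 weeks its 2 arrays read 4.52 and 8.79, so a high value appeared on 3 of the 6 clipped arrays and on none of the 6 others. Myl7 and Myl4, atrial myosin light chains, differed between the sham mates by 2.20 and 1.19. Nppa, Sln and Dkk3 are on this list too, and Nppa is also on the load list. Tbx5 (-0.05 ± 0.11) and Kcna5 (0.43 ± 0.20) did not pass. The count was 8, 1, 3 and 0 with 1 array left out.

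Matrix genes rose broadly, with the second clipped array far above the first. Of 10 fibrillar collagens and fibronectin 6 rose and 1 fell, with a median of 0.57 on the first array and 1.65 on the second. Col3a1, the collagen of young scar and vessel walls, read 11.10 and 12.15 against 9.49 and 9.53, an increase of 2.12 ± 0.31 (adjusted p = 0.0060). Its clipped arrays lay 1.57 or more above both sham arrays, and it was the fibrillar member that kept the call without each array. Col1a1 and Col1a2, the chains of type I collagen, rose by 2.23 ± 0.38 and 1.97 ± 0.36, and Col27a1, a fibrillar collagen of cartilage, fell by 0.48 ± 0.13. The count of increases was 6, 2, 2 and 1 with 1 array left out, and in none of the 6 were the clipped arrays at 1 week the highest of the series.

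Collagens of networks and basement membranes, the FACIT collagens that coat fibrils, and laminins were the next list. Of these 26 genes 16 rose and 1 fell, with medians of 0.40 and 0.71 on the 2 arrays. Lama4, the laminin chain of capillaries, read 10.27 and 10.44 against 9.67 and 9.78, and Nid2, a linker of laminin and collagen IV, read 8.19 and 8.64 against 7.40 and 7.49. Both had clipped arrays at 1 week above, and sham arrays below, every other array. Col4a2, a chain of the vascular basement membrane, rose by 1.02 ± 0.16, and these 3 kept the call without each array, while the count of increases was 17, 6, 9 and 4. Col8a1, a network collagen, and Col14a1, a FACIT collagen, rose by 2.29 ± 0.46 and 2.17 ± 0.38, and Col12a1, another FACIT collagen (6.07 and 8.21 against 5.58 and 5.53), did not pass, with an adjusted p of 0.076.

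Matricellular genes also differed between the clipped arrays. Of 20 such genes 6 rose and none fell, with medians of 0.27 and 1.12 on the 2 arrays. Sparc, a collagen-binding protein, read 11.81 and 12.54 against 10.79 and 10.91, rose by 1.33 ± 0.20 (adjusted p = 0.0072) and was the member that kept the call without each array. Postn, a marker of activated fibroblasts, read 10.16 and 12.15 against 7.87 and 8.25, and Tnc, a matrix protein of healing tissue, read 5.91 and 9.23 against 5.16 and 5.23. On the first array Tnc was 0.68 above its higher sham value, and the clipped mates were 3.32 apart. Thbs4 (6.83 and 9.80 against 6.93 and 6.52) had groups that overlapped and did not pass. The count was 14, 2, 2 and 1 with 1 array left out, and 3 with cyclic loess scaling.

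Some proteoglycans, elastic fibre genes and enzymes of the matrix rose as well. Proteoglycan genes counted 10 higher of 27, among them Vcan, a hyaluronan-binding proteoglycan (1.86 ± 0.34), Aspn and Lum, small collagen-binding proteoglycans (1.71 ± 0.29 and 1.33 ± 0.21). Collagen maturation counted 9 of 23, with Lox, the cross-linking oxidase, at 7.10 and 9.46 against 5.97 and 5.86. Elastic fibre genes counted 9 higher and 1 lower of 17, with Eln, elastin itself, at 1.36 ± 0.28. Proteases and their inhibitors counted 11 of 30, with Timp1, an inhibitor of metalloproteases, at 7.63 and 10.58 against 6.49 and 6.22, a gap of 2.95 between the clipped mates. With 1 array left out the count of increases was 13, 2, 3 and 1 for proteoglycans, 16, 0, 1 and 0 for maturation, 11, 0, 0 and 0 for elastic fibres and 18, 0, 0 and 0 for proteases. With cyclic loess scaling these 4 counts were 8, 3, 6 and 7. Against the later weeks the medians of these 4 lists were 0.03, 0.17, 0.07 and 0.09, and the 1 call was Mmrn1 of the elastic fibre list, lower at 1 week.

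Fibroblast markers counted 9 higher and 1 lower of 20, with a median of 0.46. Meox1, a transcription factor of activated fibroblasts, rose by 1.52 ± 0.36 and Fap, their surface protease, by 0.78 ± 0.13, while Pdgfra, a receptor found on resting fibroblasts too, differed by 0.33 ± 0.15 (adjusted p = 0.13). The fibroblast count of increases was 12, 3, 4 and 1 with 1 array left out.

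**Figure D3:**
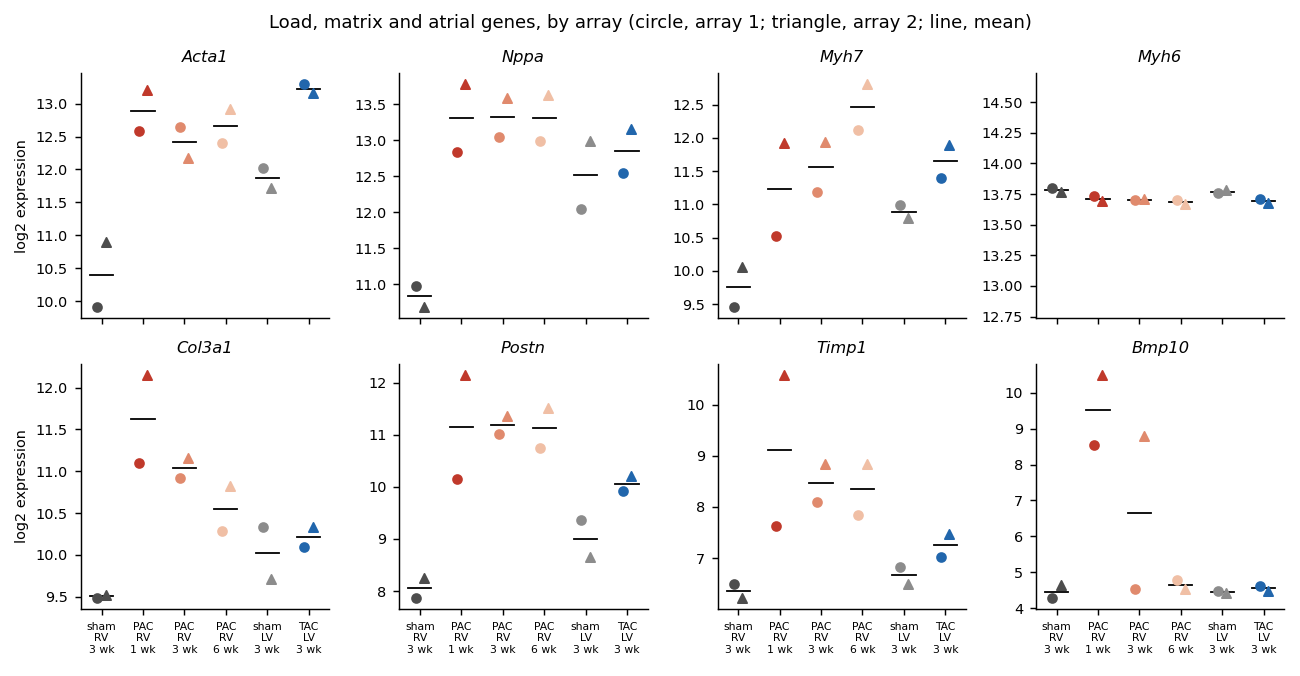
Log2 expression of 8 load, matrix and atrial genes on all 12 arrays, drawn with a circle and a triangle for the mates of a group and a line for their mean. Clipped values at 1 week were 12.59 and 13.20 for Acta1 and 10.16 and 12.15 for Postn, Myh6 read 13.69 to 13.80 on the 4 arrays compared, and Timp1 was 2.95 apart between the clipped mates.

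Growth factor lists were called at shares near those of all genes, 9.57% higher and 8.86% lower, or below them. Of 37 genes of TGF-beta, activin and BMP signalling 4 rose (10.8%) and 1 fell (2.7%), with Fstl1, a secreted glycoprotein of stressed heart, at 10.25 and 11.40, an increase of 1.87 ± 0.30, and the receptor Tgfbr1 at 0.86 ± 0.17. Mstn, the inhibitor of muscle growth myostatin, fell by 0.49 ± 0.11 at levels of 4.22 and 4.48, below the mark for low signal. Of 31 Wnt genes 4 rose (12.9%) and 3 fell (9.7%). The increases were in secreted regulators of the pathway, Sfrp2 (2.01 ± 0.55), Frzb (1.59 ± 0.43), Sfrp1 (1.00 ± 0.30) and Dkk3 (2.17 ± 0.50), and the decreases included the secreted inhibitor Wif1, at 6.86 and 6.68 against 7.77 and 7.44. Of 36 genes of the IGF, FGF, PDGF and EGF families 3 rose (8.3%) and 1 fell (2.8%), led by Igfbp7, an IGF-binding protein of vessels (0.96 ± 0.22). With each array omitted the increases numbered 13, 1, 2 and 0 for the TGF-beta list, 6, 0, 0 and 0 for the Wnt list and 11, 0, 0 and 0 for the IGF list.

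Some genes of vessels rose. Over all genes 9.57% were called higher and 8.86% lower, and in the highest quartile of level 17.3% were called higher. The angiogenic list stood at 25.8% higher and 3.2% lower. The endothelial list, with a median of 0.06, stood at 17.4% higher, near the share of that quartile. Of 31 angiogenic genes 8 rose and 1 fell, with a median of 0.18, and 7, 1, 4 and 1 rose with 1 array left out. Aplnr, the apelin receptor, read 9.50 and 9.44 against 8.45 and 8.39, an increase of 1.05 ± 0.19. Nrp2, a co-receptor for VEGF and semaphorins, read 8.89 and 8.96 against 8.13 and 8.43 and kept the call without each array. Of 23 endothelial markers 4 rose and none fell, by 0.34 to 0.38 for Cdh5, Tie1, Erg and Cldn5, while Pecam1 differed by 0.29 ± 0.09 (adjusted p = 0.051). The endothelial count was 3 without the first clipped array and 0 without any other. Sele, the adhesion molecule of activated endothelium, read 7.61 and 8.03 against 6.72 and 6.96, rose by 0.98 ± 0.15 and kept the call without each array.

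Cytoskeleton genes of non-muscle cells rose widely against sham. Of 39 actin cytoskeleton genes 22 rose and none fell, with medians of 0.30 and 0.79 on the 2 arrays. For 4 of the 22 the clipped arrays at 1 week were the highest of the series, and for 12 the sham arrays were the lowest. Fscn1, which bundles actin in protrusions, read 8.96 and 9.23 against 8.05 and 8.09, an increase of 1.02 ± 0.11 (adjusted p = 0.0029), and it was 0.68 higher than at the later weeks. Marcks, a membrane-bound actin regulator, read 9.98 and 10.20 against 9.06 and 9.10. Both genes were highest at 1 week among all groups and kept the call without each array. Acta2, the smooth muscle actin of myofibroblasts and vessels, rose by 0.69 ± 0.16, and Arpc5, a subunit of the branching complex, by 0.94 ± 0.14. The count was 33, 3, 4 and 2 with 1 array left out. Annexins, S100 proteins and galectins counted 12 higher and 1 lower of 22. For none of these 12 were the clipped arrays at 1 week the highest of the series, and for 6 the sham arrays were the lowest. Integrins counted 6 higher and 1 lower of 22, with Itga6, a laminin receptor subunit, at 0.71 ± 0.09. With each array omitted the increases numbered 12, 0, 3 and 0 for the annexin list and 10, 1, 2 and 3 for the integrins, and cyclic loess scaling left 3 of the annexin list.

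Macrophage genes were another group in which clipped arrays at 1 week often led the series. Of 31 genes of recruited monocytes and macrophages 20 rose and none fell, with medians of 0.39 and 1.12 on the 2 arrays, and for 7 of the 20 both clipped arrays at 1 week lay above all the other 10. Msr1, a scavenger receptor, read 6.96 and 7.50 against 6.06 and 6.16, rose by 1.12 ± 0.17 (adjusted p = 0.0071) and kept the call without each array. Arg1, the arginase of reparative macrophages, read 5.88 and 6.17 against 5.39 and 5.10, close to the mark for low signal, and was 0.89 higher than at the later weeks (adjusted p = 0.045). C3ar1, the receptor for a complement fragment, read 8.29 and 8.97 against 7.54 and 7.55, with clipped arrays above and sham arrays below all others. Resident macrophage genes counted 4 higher and 1 lower of 19, with Mrc1, the mannose receptor, at 9.26 and 9.51 against 8.77 and 8.68. The median of the recruited list was 0.51 above the later weeks, and its own medians over the shared sham arrays were 0.75, 0.35 and 0.12 at 1, 3 and 6 weeks. With each array omitted the increases numbered 27, 2, 2 and 1 for the recruited list and 7, 0, 1 and 1 for the resident list.

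Other leukocyte and cytokine lists had no common direction. Over all genes 9.57% were called higher and 8.86% lower. Chemokine genes stood near these shares, at 11.4% and 8.6%, and interferon-stimulated genes at 12.5% higher. Genes of neutrophils and mast cells were at 5.0% higher, and lymphocyte genes at 31.6% lower. Of 19 lymphocyte genes 6 fell and none rose, 11 of the 19 had mean levels below the mark for low signal, and the decreases numbered 5, 1, 2 and 0 with 1 array left out and 1 with cyclic loess scaling. Of 20 genes of neutrophils and mast cells 1 rose, Kit, the receptor of stem cell factor, at 7.77 and 7.81 against 6.80 and 6.98. Its increase was 0.90 ± 0.11 over sham (adjusted p = 0.0031) and 0.69 over the later weeks, and it kept the call without each array. The mast cell genes Tpsb2 (5.97 and 6.02) and Ms4a2 (3.50 and 3.45) were at or near low signal on the clipped arrays and did not pass. Chemokine genes counted 4 higher and 3 lower of 35. Ccl12, a monocyte attractant, read 6.08 and 7.49 against 5.45 and 5.54, while Cxcl14 fell from 8.37 and 8.27 in sham to 7.45 and 7.35, and Ccl11, the eosinophil attractant, from 7.19 and 7.11 to 6.36 and 6.30. Cxcl14 and Ccl11 kept the call without each array. With each array omitted 14, 1, 1 and 0 chemokine genes rose and 2 fell each time. Interferon-stimulated genes counted 3 higher of 24, and 2, 0, 1 and 0 with 1 array left out.

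Genes of the epicardium departed from the usual order of the clipped arrays. Of 14 markers 3 rose, Msln, Muc16 and Aldh1a2 (2, 3, 2 and 0 with 1 array left out), and for all 3 the clipped arrays at 1 week were the highest of the series. Msln, a surface protein of mesothelium, read 7.92 and 7.28 against 6.99 and 6.38, and Muc16 read 5.85 and 5.10 against 4.67 and 4.46, both higher on the first clipped array. Aldh1a2, which makes retinoic acid, read 8.19 and 9.69 against 7.80 and 7.23 and was higher on the second. The median of the list was 0.58 on the first array and 0.11 on the second, and 0.72 above the later weeks, where no member passed the test. Upk1b (8.55 and 7.82 against 7.60 and 6.33) did not pass either, with an adjusted p of 0.054. Whether more of the surface layer was kept with the 1-week samples was not tested.

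Some genes of fatty acid metabolism fell by small amounts. Of 35 genes of fatty acid uptake, storage and oxidation 6 fell (17.1%, against 8.86% of all genes) and none rose, with a median of -0.30, which was -0.07 on the first clipped array and -0.51 on the second. Acaa2, the last enzyme of mitochondrial beta oxidation, read 12.36 and 11.85 against 12.77 and 12.66, and Plin5, the lipid droplet protein of oxidative muscle, read 8.88 and 8.22 against 9.21 and 9.21. Both clipped arrays were below both sham arrays, and the second was the lower in each. In fits without 1 array 22, 0, 0 and 0 genes of the list fell. Of 25 genes of branched-chain amino acid and propionate breakdown 2 fell (8.0%), and of 23 metabolic transcription regulators 3 fell (13.0%), shares near that of all genes. Bcat2 and Bckdhb, of branched-chain amino acid breakdown, fell by 0.49 ± 0.09 and 0.59 ± 0.15, and Thrb, Thra and Esrra, nuclear receptors that govern oxidative metabolism, by 0.48 ± 0.12, 0.35 ± 0.10 and 0.34 ± 0.10. In fits without 1 array the amino acid breakdown list counted 13, 0, 0 and 0 decreases and the list of metabolic regulators 7, 0, 0 and 0. The fatty acid list had a median of -0.03 against the later weeks, and for all 6 calls the sham arrays were the highest of the series.

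Some biosynthetic genes rose, while glucose genes were called higher at a share near that of genes of similar level. For reference, 9.57% of all genes were called higher and 8.86% lower, and 17.3% were called higher in the highest quartile of level. The mean level of the glucose list lay in that quartile. The other lists of this paragraph were called higher at larger shares. Of 30 glucose genes 6 rose and 1 fell, with a median of 0.03, led by Pfkp, a phosphofructokinase of non-muscle tissue (1.20 ± 0.23), Slc2a1, the glucose transporter of fetal heart (0.65 ± 0.16), and Pgd and Tkt of the pentose phosphate pathway (0.50 ± 0.09 and 0.42 ± 0.09). Of 18 genes of cholesterol and fatty acid synthesis 7 rose and none fell, with Idi1, of the mevalonate pathway, at 7.71 and 7.86 against 6.89 and 7.11, the member that kept the call without each array. Of 22 genes of serine, one-carbon, polyamine and amino acid synthesis 6 rose, among them Psat1, of serine synthesis (0.64 ± 0.15), and Slc1a5, a glutamine transporter (0.52 ± 0.12). Of 26 nucleolar genes 7 rose and 1 fell, with Myc, a driver of ribosome production, at 6.76 and 7.40 against 6.13 and 6.15. Mt2, a metal-binding metallothionein, read 10.20 and 10.96 against 8.94 and 7.83, a rise of 2.19 ± 0.48 with sham mates 1.11 apart. Its list of metallothioneins and redox genes counted 6 higher and 1 lower of 26 (23.1% and 3.8%). In fits without 1 array the increases numbered 5, 0, 2 and 0 for glucose genes, beside 7, 0, 0 and 0 decreases, 7, 2, 4 and 2 for cholesterol and fatty acid synthesis, 9, 0, 1 and 0 for serine and related synthesis and 12, 0, 3 and 1 for the nucleolus.

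Tfrc and Slc40a1 are single genes named for the size of their change or their small p, and no list of iron genes was examined. Tfrc, the transferrin receptor that takes iron in, read 11.71 and 11.88 against at most 10.45 in sham and rose by 1.56 ± 0.15 (adjusted p = 0.0021). Slc40a1, ferroportin, which lets iron out, read 8.66 and 8.06 against 9.60 and 9.27 and fell by 1.08 ± 0.19 (adjusted p = 0.011). Neither gene's groups overlapped. At 1 week Tfrc differed from the later weeks by 0.16 and Slc40a1 by -0.09, and neither difference passed the test.

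Enzymes for small molecules and steroids had more decreases than any other of the 56 lists. Of 35 such genes 14 fell and 1 rose, with a median of -0.35. For 3 of the 14 the clipped arrays at 1 week were the lowest of the series, and for 8 the sham arrays were the highest. The list's medians over the shared sham arrays were -0.33 at 3 weeks and -0.38 at 6 weeks. Its median at 1 week against the later weeks was -0.05, so the list as a whole was not lower at 1 week than later. Inmt, a methyltransferase of indoles, read 7.64 and 6.56 against 10.36 and 9.81, a fall of 2.99 ± 0.31 on the log2 scale (adjusted p = 0.0029). Its clipped arrays at 1 week were the lowest of the series, and it was 1.65 lower than at the later weeks. Amy1, an amylase, fell by 1.55 ± 0.22, Hsd11b1, which regenerates active glucocorticoid, by 1.11 ± 0.14, and Maob, a monoamine oxidase, by 0.86 ± 0.13. The single increase, Aldh1a2, is the epicardial gene described above. The decreases numbered 18, 5, 5 and 3 with 1 array left out, and Amy1, Hsd11b1 and Inmt were called each time.

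Single genes outside that group fell as far. Mmrn1, a secreted protein of platelets and lymphatic endothelium, read 4.04 and 3.88 at 1 week and 7.40 and 7.28 in sham, and no other array of the series was below 7.08. The difference of -3.39 ± 0.24 had the smallest adjusted p of the comparison (0.00065), and against the later weeks it was -3.74 ± 0.21 (adjusted p = 5.4e-05). As background, Mmrn1 lies in a stretch that is deleted in 1 substrain of C57BL/6, and the labels give the strain as C57BL/6 only; whether the 1-week mice came from another substrain was not tested. The other lymphatic and venous markers did not follow it, since Prox1 read 9.21 and 8.83 against 9.25 and 9.26 and Pdpn rose by 0.81 ± 0.22. Penk, the precursor of enkephalins, read 6.72 and 6.01 against 8.75 and 8.54, a fall of 2.28 ± 0.21 (adjusted p = 0.0019). C7, of the complement attack complex, read 7.91 and 8.10, a fall of 1.16 ± 0.22 from sham, and its clipped arrays at 1 week were the lowest of the series. Tac1, the precursor of substance P, fell by 0.82 ± 0.11 at 5.17 and 5.15, below the mark for low signal, and Sncg, a synuclein, fell by 0.78 ± 0.09. Both were also lower than at the later weeks, by 0.71 and 0.58.

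Genes lower at 1 week than later were not all lower than sham. Cpxm2, a carboxypeptidase-like secreted protein, was 1.52 below the later weeks, Bdh1, a ketone body enzyme, 1.11 below and Prune2 0.74 below, and none of these 3 differed from sham beyond the threshold (-0.46 ± 0.20, -0.27 ± 0.16 and -0.22 ± 0.12).

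The remaining lists are given by count, to be read against 9.57% higher and 8.86% lower over all genes. Several exceeded these shares, among them the increases of tubulin and complement genes. Of 16 tubulin and microtubule genes 4 rose and 1 fell, the latter Map4, a microtubule protein of heart muscle, at 10.14 and 9.80 against 10.61 and 10.72. Of 29 chaperones and sensors of the endoplasmic reticulum 5 rose and none fell, with a median of -0.01, and of 24 immediate early genes 3 rose, with Jun at 0.48 ± 0.12, and 1 fell. Ubiquitin ligases and autophagy genes counted 2 higher and 1 lower of 20, with Fbxo32, the muscle ligase atrogin-1, at 0.39 ± 0.10. Complement counted 4 higher and 2 lower of 21, pericyte and smooth muscle markers 2 and 1 of 18, and adrenergic genes 2 and 1 of 20. Natriuretic, endothelin and angiotensin genes counted 3 higher and 0 lower of 22. Lymphatic and venous endothelial markers counted 2 and 1 of 14, and genes of MHC class II presentation 1 and 1 of 12. Markers of Schwann cells and neurons counted 0 higher and 2 lower of 14, of adipocytes 2 and 2 of 13, and of red cells 0 and 0 of 4. Genes of skeletal muscle, thymus and lung, which a dissection could carry along, counted 0 higher and 5 lower of 17 (29.4%), and 7 of the 17 had mean levels below the mark for low signal. With cyclic loess scaling the decreases numbered 1 in that list and 0 in the list of Schwann cells and neurons. Without the second clipped array none of the lists in this paragraph had more than 1 call in either direction. Without the first the increases numbered 10 for complement, 9 for tubulins, 9 for immediate early genes and 7 for adrenergic genes.

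Clock genes split the series by week. Of 17 clock genes 5 rose and 3 fell against sham, and with 1 array left out 5, 2, 2 and 2 rose and 3 fell each time. Dbp, an output gene of the clock, read 9.48 and 9.17 against 7.93 and 8.14, a rise of 1.30 ± 0.16 (adjusted p = 0.0031), and Nr1d1, the repressor Rev-erb alpha, rose by 0.83 ± 0.14. Arntl, which codes for the clock activator BMAL1, fell by 0.62 ± 0.10, Nfil3, a repressor that opposes Dbp, by 0.89 ± 0.13 and Cry1 by 0.50 ± 0.08. These 5 genes kept the call without each array. For 6 of the 17 (35.29%, against 1.18% of all genes) the 4 arrays taken at 1 and 6 weeks lay all above or all below the 8 arrays taken at 3 weeks, whatever the operation or ventricle. Dbp read 9.17 to 9.63 on those 4 arrays and 7.85 to 8.28 on the 8, and Arntl 7.89 to 8.04 against 8.33 to 8.70. The time of day at which hearts were taken is not given in the sources used here, and its part in these differences was not tested.

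**Figure D4:**
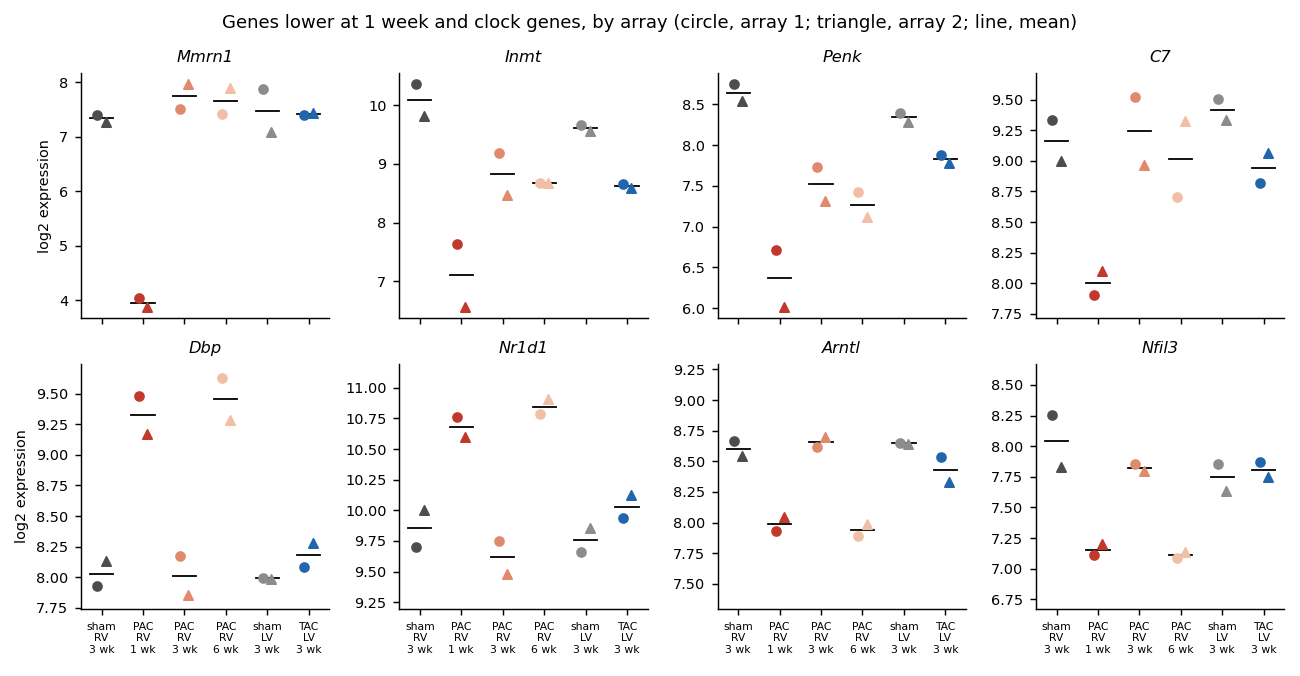
Log2 expression of 4 genes lower at 1 week and 4 clock genes on all 12 arrays, drawn with a circle and a triangle for the mates of a group and a line for their mean. Mmrn1 read 4.04 and 3.88 at 1 week and at least 7.08 on every other array, and Dbp read 9.17 to 9.63 at 1 and 6 weeks and 7.85 to 8.28 on the 3-week arrays.

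The change at 1 week of clipping was set against the change in the left ventricle after 3 weeks of aortic constriction, by the difference of the 2 differences. It called 2 genes (0.01%) at adjusted p = 0.02 each, 1 larger at 1 week of clipping (0.00502%) and 1 smaller (0.00502%), while 3434 genes had an unadjusted p under 0.05, and constriction against its own sham called none (0%) by the same limma test. Slc38a1 read 6.97 and 7.07 after constriction and 7.27 and 7.03 in the sham left ventricle, and its change differed by 1.82 ± 0.20. Mmrn1 differed by -3.33 ± 0.34. Without 1 array at a time this comparison called 0 to 677 genes: 677 without the first clipped array, 1 without either sham left ventricle, and 0 without any of the other 5. Side, week and age differ together in it and cannot be told apart.

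Precursors of microRNAs were read by 259 of the probe sets, and 4 rose and 37 fell (14.3%, against 8.86% of all genes, and against 9.3% and 16.7% in the lowest and second quartile of level), with a median difference of -0.13 at a median level of 4.80, below the mark for low signal. The probe sets read the precursor's locus and not the mature microRNA. The 3 shown here were chosen after their values were seen, because each lies within the span of a gene described above; capitals mark the seed, bases 2 to 8, and the sequences and positions are those of RefSeq for GRCm38.p6.
mmu-miR-15b-5p, chr3:69009775-69009796, plus strand: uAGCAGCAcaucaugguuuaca
mmu-miR-16-5p, chr3:69009918-69009939, plus strand: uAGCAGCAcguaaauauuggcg
mmu-miR-208a-3p, chr14:54949072-54949093, minus strand: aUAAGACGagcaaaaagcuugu
The first and second share their seed. Mir15b read 4.91 and 5.46, a rise of 1.36 ± 0.21 (adjusted p = 0.0073), and Mir16-2 read 4.69 and 5.26 against 4.18 and 3.80, a rise of 0.98 ± 0.20 (adjusted p = 0.015), both at low signal. Both lie within the span of Smc4, which read 8.45 and 8.89 against 7.55 and 7.11. Mir208a, within Myh6, read 8.39 and 8.35 against 9.36 and 9.09 and fell by 0.85 ± 0.14 (adjusted p = 0.0077), while Myh6 itself differed by -0.07 ± 0.07. Mir208a kept the call without each array.

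**Figure D5:**
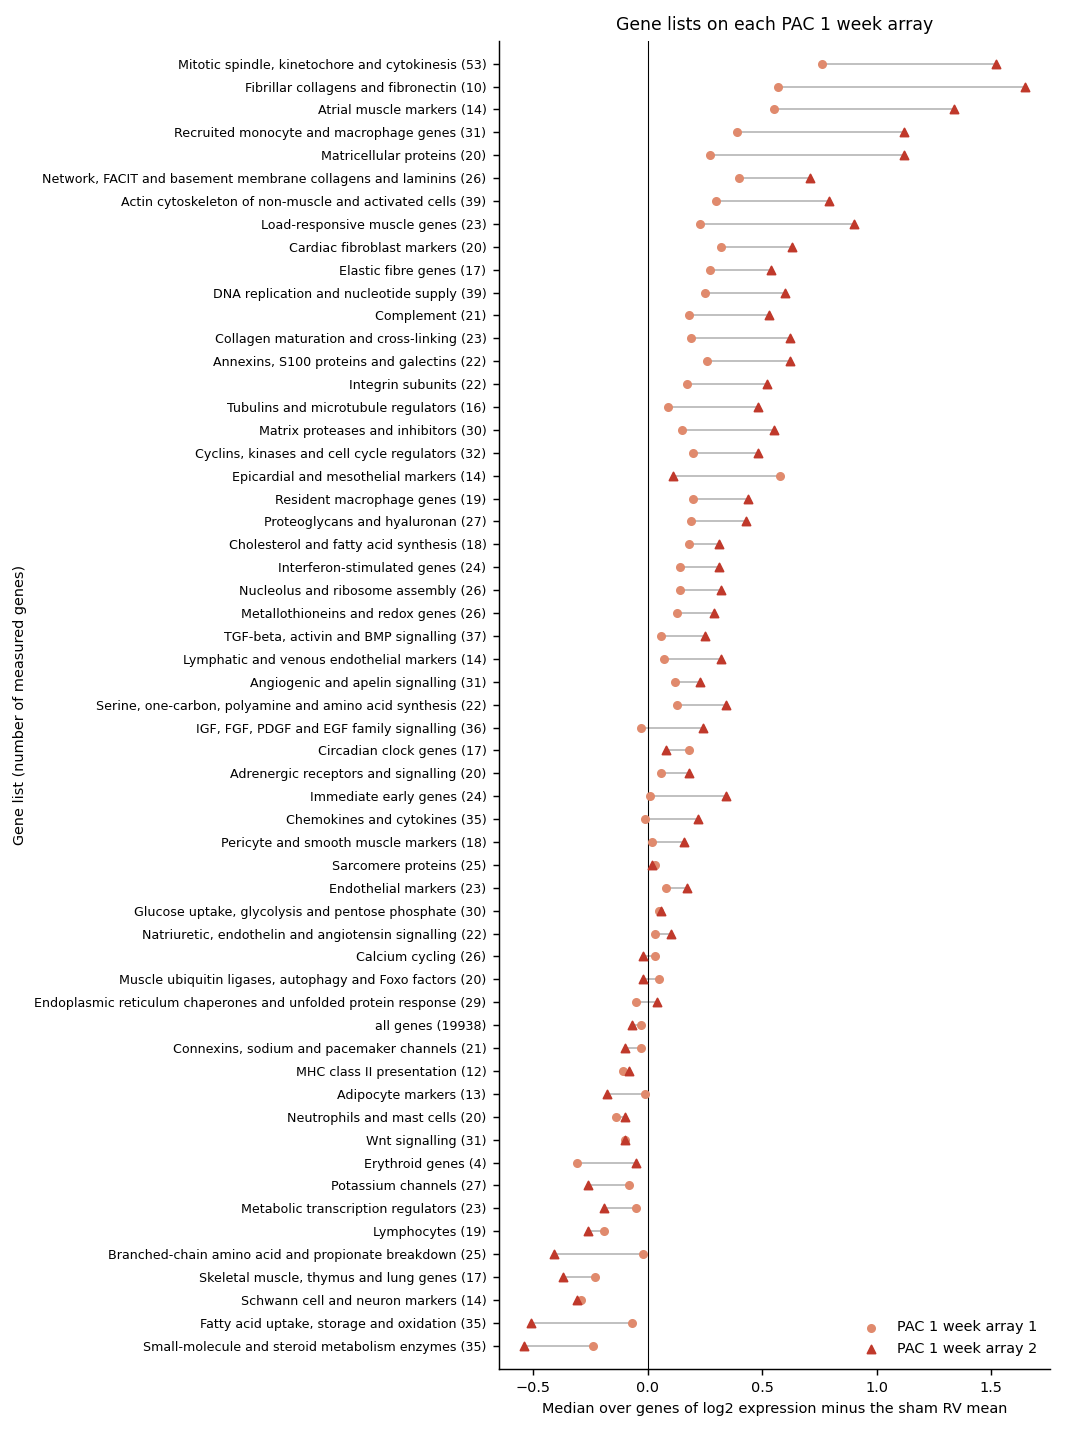
Each row is a gene list with its number of measured genes, and the points are the list's median log2 expression minus the sham right ventricle mean on the first (circle) and second (triangle) clipped array at 1 week. The mitotic list stands at 0.76 and 1.52, the fatty acid list at -0.07 and -0.51, and the epicardial list is among those in which the first array lies higher, at 0.58 against 0.11.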

How the data were processed

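RNA of 12 samples in 6 groups of 2 was hybridised to Affymetrix gene arrays, 1 array a sample. The values are log2 expression deposited by the authors, who used RMA in Affymetrix Power Tools per the submitters' processing notes; the software version, genome build and library files were not stated there. RMA gives the probe intensities of every array the same distribution, which hides a shift of all genes. The deposited values are summaries of probes and kept small differences, with array medians of 6.33 and 6.32 for the clipped pair at 1 week and 6.40 and 6.38 for the sham right ventricles. An array has no read depth, and the number of arrays limits the precision. Of 35556 probe sets 21789 named 1 gene in the platform annotation, 1621 named several and 12146 were unlisted. For 999 genes with several probe sets, the one with the highest mean over 12 arrays was kept, which left 19938 genes.

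limma 3.58.1 under R 4.3.3 fitted 6 group means at once (6 residual degrees of freedom, 4.6 prior), with Benjamini-Hochberg adjustment over 19938 genes and a threshold of 0.05. Named genes were the 40 largest called changes each way with groups that did not overlap, up to 6 called and 3 uncalled genes of each of 56 lists, 8 fixed heart genes, the 15 smallest p, the 10 largest gaps between the clipped arrays, the 10 largest each way in the other comparisons, and defining markers; predicted models and receptor and small RNA families were left out. Ddc, Epn3, the microRNA loci and list members named only for keeping the call without each array were chosen after their values were seen; Actc1 and Pln are a tissue check. Members and lists were chosen with earlier results of these data known.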

Additional observations from a re-analysis of the deposited data

Results flagged for a closer look

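The change of Mmrn1 at 1 week of clipping differed from its change under aortic constriction by -3.33, and that of Slc38a1 by 1.82, in limma's test of the difference itself. Probe sets outside the comparison also carried differences. Of 1621 probe sets that name several genes 165 were called, 101 higher and 64 lower, and of 12146 probe sets with no gene listed 1 was called, higher at 1 week, while 2625 had an unadjusted p under 0.05.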

How the results depend on the processing

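Against sham, the 3675 calls became 2174 with cyclic loess scaling, 1507 with only right ventricular arrays and 89 with only the 4 arrays compared, and 3630 to 3817 with probe sets averaged, a trend and robust prior, or the replicate block. With only genes at or above the median level 2694 were called. Of the calls 51.9% were increases, and 62.7% with loess and 74.3% with the level filter. With loess the 1909 increases became 1363 and the 1766 decreases became 811. Without 1 array they ranged from 227 to 4557. Listed genes called were 397, or 208 and 34 with the smaller sets of arrays, and 59 to 604 without 1 array. Against the later weeks the 45 calls became 103 with the trend and robust prior, 2 with only right ventricular arrays and 1 with only the arrays compared, and 3 to 560 without 1 array. The 2 calls against aortic constriction became 4 with the level filter, 5 with the trend and robust prior and 1 with only the arrays compared, and 0 to 677 without 1 array. The cause of these shifts was not tested, though a fit of fewer arrays has fewer degrees of freedom and fewer arrays pool the spread. Where 1 array was left out, its lone mate was assumed to vary like the other groups. Among the genes named, Myh6 turned to 0.02 with loess and Tbx5 to 0.07 without the first clipped array, against -0.17 without the second, all uncalled.

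The groups share replicate numbers that no label ties to a shared source. Deviations of same-numbered arrays correlated at 0.02 between clipped and sham right ventricles, and at 0.263 (1 and 3 weeks), 0.37 (1 and 6 weeks) and 0.261 (3 and 6 weeks) among clipped ones, a hint from the data and not the design, with only 2 numbers to compare. With the replicate block the counts were 3761, 38 and 3, and 33 of the 45 later-week calls were among the 38. Low-signal genes, 2 arrays a group and the absence of a sham right ventricle at 1 week limit what these arrays can show.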
